A study of Mus musculus with 2 samples.

Results

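The genes described here are Prox1, Lyve1, Mmrn1, Reln and Pdpn, 5 of the 20140 genes in the deposited tables, chosen by name as a set of lymphatic endothelial genes and followed through every cell cluster. All 5 had a row in the tables. The tissue was the submandibular and sublingual salivary gland, taken from female mice of the C57BL6/J strain at 14 weeks of age. In the ligated group a metal clip had closed the main ducts for 14 days, and in the mock group the ducts had been exposed without clipping and the animals healed for the same time. Each group was 1 droplet single-cell RNA library made from 2 pooled glands, so every difference between them is a difference between 2 libraries, has no replicate check and carries no p-value, and surgery and library cannot be told apart. Cells bearing EpCAM, an epithelial surface protein, or Ter119, a red blood cell surface protein, had been depleted with beads in both groups.

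Lymphatic vessels drain fluid and immune cells from tissue, and their endothelial cells are set apart from blood endothelial cells by a small group of genes. Prox1 is the homeodomain transcription factor that sets and maintains lymphatic endothelial identity. Lyve1 is a hyaluronan receptor of lymphatic capillaries that some macrophages also carry. Mmrn1 encodes multimerin, a secreted protein of lymphatic endothelium and platelets. Reln encodes reelin, a large secreted glycoprotein best known from neuronal migration and also made by lymphatic endothelium. Pdpn encodes podoplanin, a mucin-like surface protein of lymphatic endothelial cells that activates the platelet receptor CLEC-2, and it is also a familiar fibroblast protein.

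In the mouse annotation on GRCm38, Prox1 lies on the minus strand of chromosome 1 (chr1:190118035-190170714), and its longest transcript has 5 exons. Lyve1 lies on the minus strand at chr7:110850607-110863239 and Mmrn1 on the plus strand at chr6:60924976-60989378. Reln spans 460 kb on the minus strand at chr5:21884454-22344702, and Pdpn lies on the minus strand at chr4:143267431-143299564. An antisense gene, Prox1os, overlaps an exon of Prox1 and had no row in the tables. Whether reads were counted by strand is not given in the sources used here, so reads from Prox1 and its antisense partners, Prox1os and Gm28172, may not have been told apart.

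The promoters of Prox1 and Mmrn1 are shown because these genes had their highest levels in the same cluster and differed in opposite directions between the libraries. Each sequence runs from 250 bases before to 50 bases after the transcription start, from RefSeq on GRCm38.p6, at chr1:190170778-190171077 on the minus strand for the first of 2 listed Prox1 starts and chr6:60944067-60944366 on the plus strand for Mmrn1. The Mmrn1 window lies inside the gene span given above, so its RefSeq start is downstream of the start of that span. Capitals mark 3 short motifs read on both strands, the ETS core GGAAG or CTTCC, the SOX core ACAAT or ATTGT and the TATA box TATAAA or TTTATA.
Prox1: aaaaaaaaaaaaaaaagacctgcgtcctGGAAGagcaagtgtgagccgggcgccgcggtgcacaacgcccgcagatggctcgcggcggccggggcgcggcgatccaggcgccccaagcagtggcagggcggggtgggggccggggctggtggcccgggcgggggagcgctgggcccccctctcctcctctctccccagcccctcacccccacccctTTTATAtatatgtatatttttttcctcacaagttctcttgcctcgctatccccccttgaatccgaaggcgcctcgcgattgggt
Mmrn1: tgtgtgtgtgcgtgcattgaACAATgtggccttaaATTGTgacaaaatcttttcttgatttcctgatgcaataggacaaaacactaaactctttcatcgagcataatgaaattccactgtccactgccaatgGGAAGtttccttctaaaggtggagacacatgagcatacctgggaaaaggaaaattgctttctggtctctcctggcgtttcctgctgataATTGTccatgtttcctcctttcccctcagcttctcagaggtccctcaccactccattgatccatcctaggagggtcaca
The Prox1 window held 1 ETS core and 1 TATA box with 25 CpG sites. That TATA box is the reverse form TTTATA, so TATAAA lies on the strand opposite to Prox1. The window of the second Prox1 start, not shown, held 3 ETS cores, 0 TATA boxes and 14 CpG sites. The Mmrn1 window held 3 SOX cores and 1 ETS core with 3 CpG sites. Over 32851 promoters of the same length the ETS core was present in 71.4%, the SOX core in 31.0% and the TATA box in 13.6%, and the median was 7 CpG sites. The promoter windows of Reln and Pdpn held 47 and 7 CpG sites. A match is only a description of the letters. Lyve1 was not matched in the promoter table.

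Values are the authors' cluster means, in unique molecular identifiers (UMIs) per 10000 UMIs of the cell, for 12 clusters of all cells. Cell numbers recovered from the tables were 11406 cells for ligated and 4199 for mock. Cluster 4 held 531 ligated cells, 4.66% of the library (exact Clopper-Pearson 95% interval 4.28 to 5.06), and 226 mock cells, 5.38% (4.72 to 6.11), intervals that cover counting error only. Cluster 0, the other endothelial cluster, held 2948 ligated and 2363 mock cells. UMI totals recovered for single cells, a sample biased to deep cells, had medians of 6149 in ligated and 6477 in mock for cluster 4.

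The label was checked against marker lists. Cluster 0 was endothelial-like, with 9 of 10 endothelial markers at their highest there. These included Pecam1 and Cdh5 and the blood endothelial genes Kdr, Flt1 and Emcn. Cluster 4 was endothelial-like too, with all 10 of those markers at 0.5 or more, and it led for all 7 arterial markers (Gja5, Gja4, Sox17, Hey1, Bmx, Sema3g and Efnb2) and for 4 of 7 lymphatic markers (Prox1, Lyve1, Ccl21a and Mmrn1). The remaining lymphatic markers were highest elsewhere in the tables that join both libraries: Flt4 in cluster 0, Pdpn in the fibroblast-like cluster 3 and Reln in the Schwann-like cluster 9. No cluster of the tables therefore stands for lymphatic endothelial cells alone, and cluster means of the 5 genes average over cells that have and lack them. A difference in a cluster mean cannot tell a different share of lymphatic cells from a different level per cell.

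Across clusters the 5 genes fell into 3 patterns. Prox1, Lyve1 and Mmrn1 were highest in cluster 4 in both libraries, Pdpn in cluster 3 in both, and Reln in cluster 9 in mock but in cluster 4 in ligated. The lead of cluster 4 over the next cluster for Mmrn1 was 38.9-fold in mock and 8.24-fold in ligated. For Lyve1 it was 19.4-fold and 7.08-fold, and for Prox1 10.5-fold and 2.83-fold. The next cluster in the ligated library was cluster 11 for all 3 genes, at 59 cells, where Prox1, Lyve1 and Mmrn1 fit a single cell, as described further on. With cluster 11 left out, a choice made after seeing the data, the ligated lead was 29.2-fold for Prox1 and 22.2-fold for Lyve1, above that in mock, and 8.6-fold for Mmrn1, still below it. For Pdpn the lead of cluster 3 was 14.4-fold in mock and 15.6-fold in ligated. The order for Reln in the ligated library was close, with cluster 4 only 1.12-fold above cluster 9. With 1 library per group no spread exists to say which neighbours in these orders differ.

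**Figure D1:**
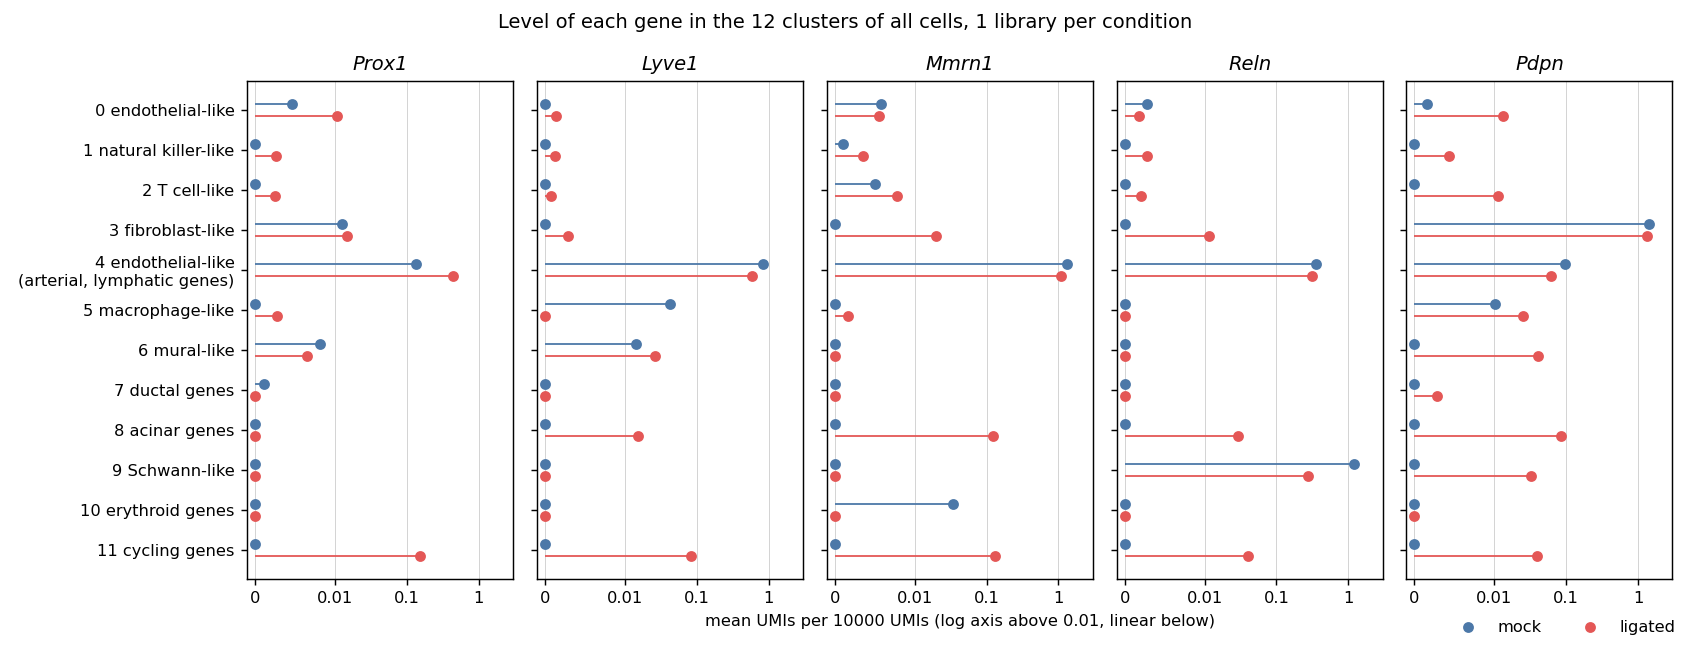
Mean level of each gene (horizontal axis, UMIs per 10000 UMIs, log scale above 0.01 and linear below) in the 12 clusters (vertical axis), mock in blue and ligated in red, 1 library each. Prox1, Lyve1 and Mmrn1 peak in cluster 4 and Pdpn in cluster 3 in both libraries, and Reln is high in clusters 4 and 9. Clusters 8, 9 and 11 have fewer than 50 mock cells.

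Prox1 was the member that differed most between the libraries in cluster 4, and the other 4 were a little lower in ligated. The level of Prox1, the identity factor, was 0.133 in mock and 0.433 in ligated, 3.26-fold higher in ligated. Recast as UMIs from the cell numbers and typical totals, these means are worth about 19.4 UMIs in mock and 141 in ligated, so the mock value rests on few molecules. On the scale log2((ligated + 0.1)/(mock + 0.1)), used for every difference below, Prox1 differed by 1.19.

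Lyve1, the hyaluronan receptor, had a level of 0.830 in mock and 0.584 in ligated in cluster 4, a difference of -0.44. Mmrn1, the secreted multimerin, had 1.33 in mock and 1.07 in ligated, a difference of -0.29. Reln had 0.361 and 0.308, a difference of -0.18. Pdpn had 0.0971 and 0.0617, a difference of -0.29 that rests on about 14.2 UMIs in mock and 20.1 in ligated. Lyve1, Mmrn1 and Reln thus lay within 1.42-fold of equality and Prox1 did not.

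A gene was called past the size rule where its higher value was at least 0.5 and its difference at least 1 in size. In cluster 4 the rule could be read for 3918 genes, of which 239 passed, 6.1%, with 129 higher and 110 lower in ligated. Of the members only Lyve1 and Mmrn1 reached the minimum of 0.5, and 0 of these 2 passed. Prox1 had a difference over 1 but a higher value under 0.5, so it is no call. With the minimum lowered to 0.1, a choice made after seeing the value of Prox1, 572 of 9066 genes passed, 6.31%. Prox1 then passed as 1 of 367 genes higher in ligated (4.05%). With 0.1 added to both values, a difference of 1 already needs a higher value of at least 0.1. The lowered minimum therefore removes no call and only sets how many genes are counted. Among 4357 genes whose higher value lay within a factor of 2 of that of Prox1, 174 were higher in ligated by a difference of at least 1, 3.99%.

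The proportions between the members are made from the same cluster 4 means, so they restate the departure of Prox1 and add no separate support. In cluster 4 the level of Prox1 was 10.0% of that of Mmrn1 in mock and 40.5% in ligated. Lyve1 was 62.6% of Mmrn1 in mock and 54.7% in ligated, and Reln 27.2% and 28.9%. These proportions compare libraries only, since levels of different genes are not on 1 scale. Against the sum of Pecam1 and Cdh5, genes of all endothelium, Prox1 was 0.536% in mock and 1.95% in ligated, a log2 ratio of 1.86. Against the sum of Flt4, the receptor for VEGF-C, and Ccl21a, a lymphatic chemokine, it was 1.95% in mock and 5.20% in ligated, a log2 ratio of 1.41. Ccl21a made up 84.3% of that sum in mock and 90.8% in ligated. The value of Ccl21a is uncertain because near-identical copies of the gene share reads.

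Markers of other cell types also differed between the libraries in cluster 4. Their median level was 2.43% of the library mean in mock (50 markers) and 11.1% in ligated (53 markers). The summed level of 7 natural killer markers was 0.426 in mock and 3.0 in ligated, that of 8 fibroblast markers 0.437 and 1.95, and that of 8 macrophage markers 0.0916 and 1.43, with 3 of the macrophage markers at 0 in mock. The 7 arterial markers summed to 22.9 and 22.8, and the 10 endothelial markers to 121 and 102. Prox1 in cluster 4 stood at 1242% of its library mean in mock and 1624% in ligated. With that median share of its library mean subtracted, Prox1 in cluster 4 was 0.1325 in mock and 0.4299 in ligated. The difference was then 1.188, against 1.194 without subtraction. The part of RNA from other cells in the Prox1 value was not tested in any other way.

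**Figure D2:**
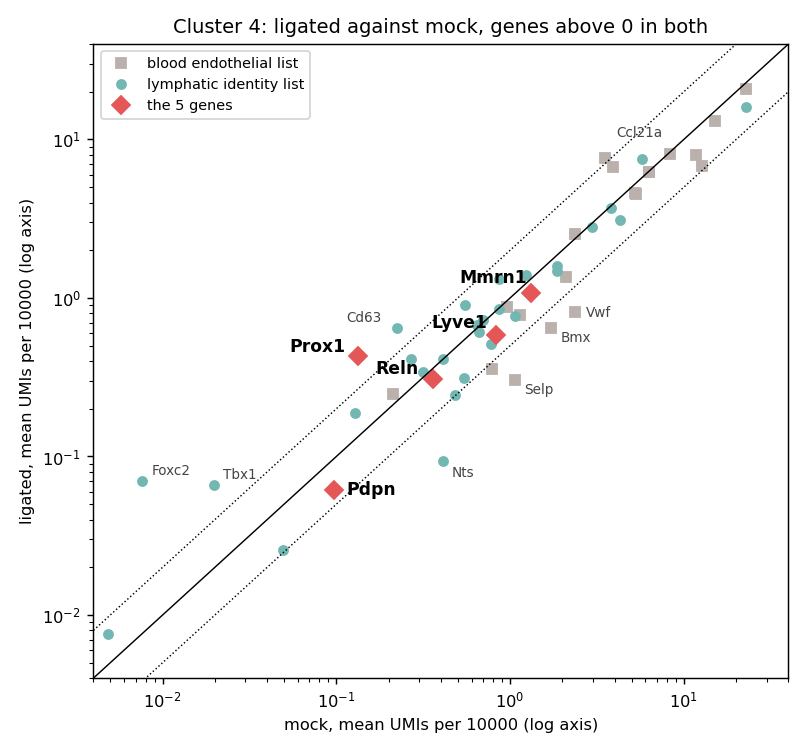
Ligated against mock level in cluster 4 (both axes UMIs per 10000 UMIs, log scale) for the 5 genes (diamonds), other lymphatic genes (circles) and blood endothelial genes (squares) above 0 in both libraries; the solid line is equality and the dotted lines are 2-fold. Prox1 lies above the upper dotted line at 0.133 and 0.433, and Lyve1, Mmrn1, Reln and Pdpn lie between equality and the lower one.

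Cluster 0, the larger endothelial cluster, had a low mean level of every member. By level times cell number it still held 24.4% of the Prox1 of the mock library and 10.3% of that of the ligated library. No member reached 0.5 there, so 0 of 0 members could be read against the 6.6% of 3849 genes that passed the rule. Prox1 had a level of 0.00464 in mock and 0.0106 in ligated, worth about 9.17 and 26.7 UMIs over the whole cluster. Lyve1 was at 0 in mock and 0.00143 in ligated, Mmrn1 at 0.00575 and 0.00557, and Reln at 0.00275 and 0.00178. Pdpn had 0.00161 and 0.0133. Flt4, by contrast, was at 1.06 in mock and 1.20 in ligated in cluster 0, beside 1.06 and 0.768 in cluster 4. In the other compared clusters apart from cluster 3 no member reached 0.5.

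Podoplanin transcripts were mainly in the fibroblast-like cluster 3, where all 8 fibroblast markers were highest. The level of Pdpn there was 1.40 in mock and 1.34 in ligated, a difference of -0.06. It was the 1 member that reached the minimum in this cluster and did not pass the rule, against 9.78% of 3762 genes that did. The mean of Pdpn over the whole library was nevertheless 0.0689 in mock and 0.15 in ligated, 2.17-fold higher. Weighting the ligated clusters by their shares in mock brought this ratio to 1.08. Cluster 3 was 4.48% of mock cells and 10.1% of ligated cells, so the library mean of Pdpn differed with the share of those cells and hardly with their level.

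In the 5 finer clusters of the stromal subset, which its file names by Pdgfr and Gli1 (genes of fibroblasts and mural cells), the level of Pdpn varied. In subset cluster 0 (167 mock and 949 ligated cells) it was 1.25 in mock and 1.38 in ligated. Subset cluster 3 (82 and 260 cells) had 0.0553 and 0.281, a difference of 1.30 with a higher value under 0.5. Subset cluster 2 had 0 and 0.00696, and its summed Prox1 (1.31 and 2.74) and Lyve1 (2.34 and 11.03) equalled those of the mural-like cluster 6 of all cells. Subset clusters 1 and 4 had under 50 mock cells, with 0.362 and 0.217 in cluster 1 and 2.58 and 3.08 in cluster 4. The subset as a whole held 84.5% of the summed Pdpn of the mock library and 89.9% of that of the ligated library.

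Reelin transcripts lay in cluster 4 and in the Schwann-like cluster 9, where all 6 Schwann markers were highest. The level in cluster 9 was 1.19 in mock and 0.275 in ligated, but the mock value comes from 17 cells and is worth about 9.5 UMIs, so the libraries were not compared there. Over each library Reln was 0.0258 in mock and 0.0245 in ligated. Cluster 4 held 75.3% of the summed Reln in mock and 58.6% in ligated, and cluster 9 held 18.7% and 26.7%. Cluster 9 held 17 cells in mock and 271 in ligated.

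For the other members cluster 4 held most of the summed level. Its share was 97.1% in mock and 90.4% in ligated for Lyve1, 94.4% and 84.6% for Mmrn1, and 66.9% and 75.6% for Prox1. Cluster 0 held 24.4% of the summed Prox1 in mock and 10.3% in ligated. Cluster 4 held 7.59% of the summed Pdpn in mock and 1.92% in ligated, so most Pdpn lay outside cluster 4 in either library. Over the whole library Prox1 was 2.49-fold higher in ligated (0.0107 and 0.0266), while Lyve1 was 0.0460 and 0.0300 and Mmrn1 0.0756 and 0.0588.

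**Figure D3:**
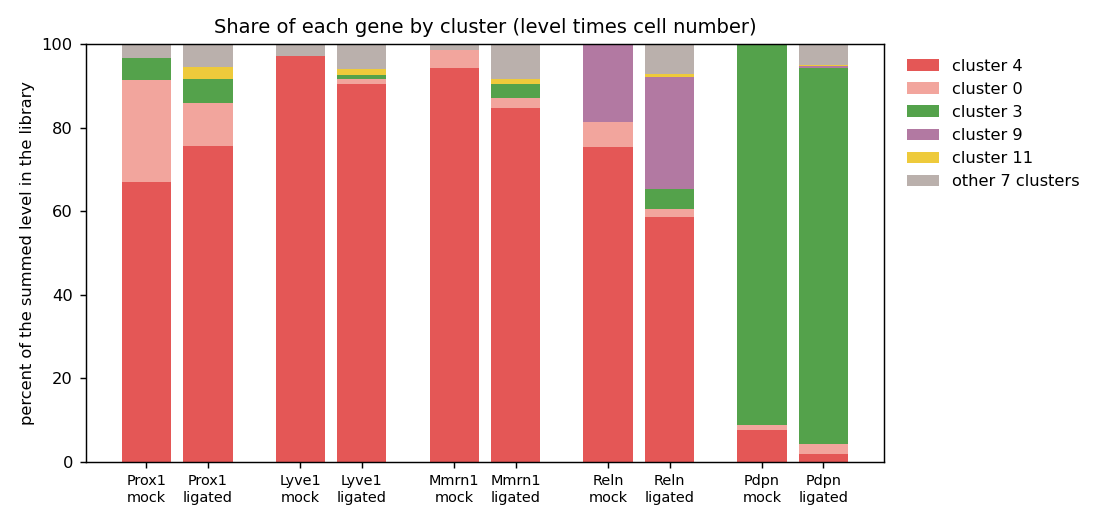
Percent of the summed level of each gene in a library (vertical axis, level times cell number) that lies in each cluster, 1 bar per gene and library. Cluster 4 holds 97.1% of Lyve1 and 94.4% of Mmrn1 in mock, clusters 4 and 9 share Reln, and cluster 3 holds 90.8% of Pdpn in mock and 90.0% in ligated.

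Outside these clusters the members were rare, and more clusters held a trace of them in the ligated library. That library had more cells. In it markers of other cell types also stood at a higher median percent of the library mean in every compared cluster. In cluster 1 this was 1.91% in mock and 7.37% in ligated, and in cluster 2 it was 2.20% and 8.97%. How either bears on the traces was not tested. Prox1 was above 0 in 5 clusters in mock and 8 in ligated, Lyve1 and Reln in 3 and 8, Mmrn1 in 5 and 8, and Pdpn in 4 and 11. In the macrophage-like cluster 5, Lyve1 was at 0.0427 in mock, worth about 3.42 UMIs in 77 cells, and at 0 in 680 ligated cells, where 3 UMIs in typical cells would be worth 0.00386. The summed markers of LYVE1-bearing macrophages (Mrc1, Cd163, Folr2, Cbr2 and F13a1) in that cluster were 0.811 in mock and 0.302 in ligated. In the mural-like cluster 6 Mmrn1 was at 0 in both libraries, although 3 of 5 platelet markers (Ppbp, Gp9 and Gp1bb) were highest there, summing with the others to 3.31 in mock and 0.0227 in ligated. In that cluster 3 UMIs in typical cells would be worth 0.0287 in mock and 0.0144 in ligated. In cluster 8, which held acinar genes and 25 mock cells, Mmrn1 was at 0.124 and Pdpn at 0.0858 in ligated and both at 0 in mock. The ligated values are worth about 3.26 and 2.26 UMIs. There 3 UMIs in typical cells would be worth 0.221 in mock and 0.114 in ligated.

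Cluster 11, led by cell cycle genes, held Prox1, Lyve1 and Mmrn1 in the ligated library alone. Their levels over 59 ligated cells were 0.153, 0.0824 and 0.130, and all 5 members were at 0 in 22 mock cells. All 3 values equal whole UMI numbers in a single cell with a total of 14392 UMIs, namely 13 for Prox1, 7 for Lyve1 and 11 for Mmrn1, within a tolerance of 0.0001. At the same total Nts gave 14 UMIs, the lymphatic valve factor Foxc2 gave 2 and Tbx1 gave 1, while Reln and Pdpn gave no whole number. No other total tried from 500 to 65000, leaving out multiples, made more than 1 member whole. The arithmetic fits 1 cell carrying all of the Prox1, Lyve1 and Mmrn1 of the cluster, and it does not say whether that droplet held 1 cell or more. Doublets were not called here.

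Some cells with lymphatic transcripts were placed in the stromal subset of the ligated library. The summed Mmrn1 of subset cluster 0 was 103 in ligated, against 22.9 in the whole of the fibroblast-like cluster 3 of all cells. The same sums were 55.4 and 17.1 for Prox1, 27.4 and 3.37 for Lyve1, and 33.6 and 13.3 for Reln. The excess over cluster 3 was 12% of the summed Mmrn1 of the library, 12.6% of Prox1, 7.00% of Lyve1 and 7.29% of Reln, and these molecules must come from cells that the table of all cells holds in other clusters. In mock Lyve1, Mmrn1 and Reln were at 0 in subset cluster 0, and its summed Prox1 of 2.37 equalled that of cluster 3. The level of Mmrn1 in subset cluster 0 was 0.109 in ligated, and that of Prox1 0.0142 in mock and 0.0584 in ligated.

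Among 35 other genes of lymphatic identity, 33 had a row, and most differed little in cluster 4. Of 18 that reached the minimum, 1 was higher in ligated (Cd63, 0.222 and 0.650) and 0 were lower. Their median difference was -0.05, against -0.003 over all genes. Over all genes 6.1% passed the rule in this cluster. Cd63, a tetraspanin of endosomes, is broadly expressed and was higher in 7 other clusters than in cluster 4. The SOX18 factor that acts upstream of Prox1 had 1.85 in mock and 1.58 in ligated. Nr2f2, the partner of Prox1, had 0.776 and 0.509, and Gata2, a valve factor, 1.87 and 1.47.

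Other lymphatic genes of this list went in either direction without passing the rule. Nts, Foxc2, Tbx1 and Itga9 lay below the minimum, and Ccl21a and Nrp2 above it. Nts, the neuropeptide gene neurotensin, had 0.410 in mock and 0.0937 in ligated, a difference of -1.40. Foxc2, a lymphatic valve factor, had 0.00765 and 0.0702, and Tbx1 had 0.0198 and 0.0666, where 1 UMI in a typical mock cell of the cluster is worth 0.00683. Itga9, an integrin of lymphatic valves, had 0.480 and 0.245. Ccl21a had 5.73 and 7.56, and its value is uncertain because near-identical copies of the gene share reads. Nrp2, the coreceptor of VEGF-C, had 1.23 and 1.40.

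In cluster 0, 2 of 13 identity genes that reached the minimum were higher in ligated and 0 lower, with a median difference of 0.16 against 0.01 over all genes. They were the scavenger receptor gene Stab1 (0.440 and 1.12) and the transcription factor gene Maf (0.555 and 1.40). The share of all genes past the rule in cluster 0 was 6.6%. In cluster 3, Fgl2 and Fxyd6 were higher and Maf lower among 11, beside 9.78% of all genes past the rule there. The blood endothelial list of 20 genes had 19 that could be read in cluster 4. The water channel gene Aqp1 was higher (3.50 and 7.69). Bmx (1.73 and 0.649), Vwf (2.37 and 0.815) and Selp (1.07 and 0.304) were lower. Aqp1 was also past the rule and higher in ligated in clusters 0, 6, 7 and 10. Of 11 pan-endothelial genes Erg was higher (0.501 and 1.25) and Eng lower (16.3 and 6.40) in cluster 4. The share of all genes past the rule in cluster 4 was 6.1%. Erg, a transcription factor gene of all endothelium, was higher in ligated in cluster 0 (0.488 and 1.58) and cluster 10 (0.322 and 0.979) as well.

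Lymphatic growth factors were spread over endothelial, fibroblast and mural clusters. Vegfc, the main lymphangiogenic ligand, was highest in cluster 4, with a level of 1.25 in mock and 1.69 in ligated and a difference of 0.40. In cluster 3 it had 0.0902 and 0.342. Vegfd, its relative, was at 0.265 and 0.0361 in cluster 3, so these ligands differed in opposite directions in the fibroblast-like cluster, both under the minimum. Of 6 ligand genes that reached the minimum in cluster 3, 1 was higher and 3 lower in ligated. Their median was -0.38, against -0.06 over all genes, and 9.78% of all genes passed the rule there. The higher gene was Ccbe1, needed for the processing of VEGF-C, with 0.249 and 0.703. The lower genes were Adm, which codes for adrenomedullin (0.578 and 0.213), Rspo3 (2.49 and 0.940) and Fn1 (3.11 and 1.39).

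Other ligand genes did not pass the rule. Svep1, a matrix protein gene of lymphatic growth, had 2.14 in mock and 3.66 in ligated in cluster 3, and Emilin1 had 1.43 and 1.85. Adamts3, the protease that cleaves VEGF-C, was at 0.018 or less in all 6 clusters shown in the plot of ligands. Angpt1, Angpt2 and Hgf were highest in the mural-like cluster 6 among those clusters, at 0.760 and 0.455, 0.644 and 0.670, and 0.773 and 0.60. In cluster 4, Fn1 was lower in ligated (4.29 and 1.83, a difference of -1.18), 1 of 2 ligand genes that could be read there. Over all genes 6.1% passed in that cluster.

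The partners of the member proteins were spread over many clusters. Of the reelin receptors, Vldlr was at 0.284 in mock and 0.253 in ligated in cluster 9, where Reln itself was high, and its levels in cluster 3 were 0.426 and 0.123. In cluster 4 Vldlr had 0.00110 and 0.00453. Lrp8 was at 0 in cluster 4 in both libraries. Dab1, the adaptor of those receptors, was at 0 in cluster 4 in both and at 0 and 0.0388 in cluster 9. Clec1b, which codes for the podoplanin receptor CLEC-2, was at 0.209 in mock and 0 in ligated in cluster 6. The hyaluronan synthase genes Has1 and Has2, which make the ligand of LYVE1, were at 0 in cluster 4, and Has2 was at 0.158 and 0.0546 in cluster 3. The third synthase gene, Has3, was at 0.0250 in mock and 0.0720 in ligated in cluster 4 and at 0.0638 and 0.0944 in cluster 0. Cd44, the broad hyaluronan receptor gene, was lower in ligated in cluster 3 (0.728 and 0.305), 1 of 5 partner genes that could be read there. Over all genes 9.78% passed the rule in cluster 3. Cd44 was past the rule and lower in ligated in cluster 5 too (1.35 and 0.368). Msn, the moesin gene whose product binds podoplanin inside the cell, had 8.77 and 6.40 in cluster 4, and Cd9, a tetraspanin gene, had 3.81 and 3.72 there. Mmp14, a membrane protease gene, was highest in cluster 3, where Pdpn was highest too, at 4.58 and 2.69.

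**Figure D4:**
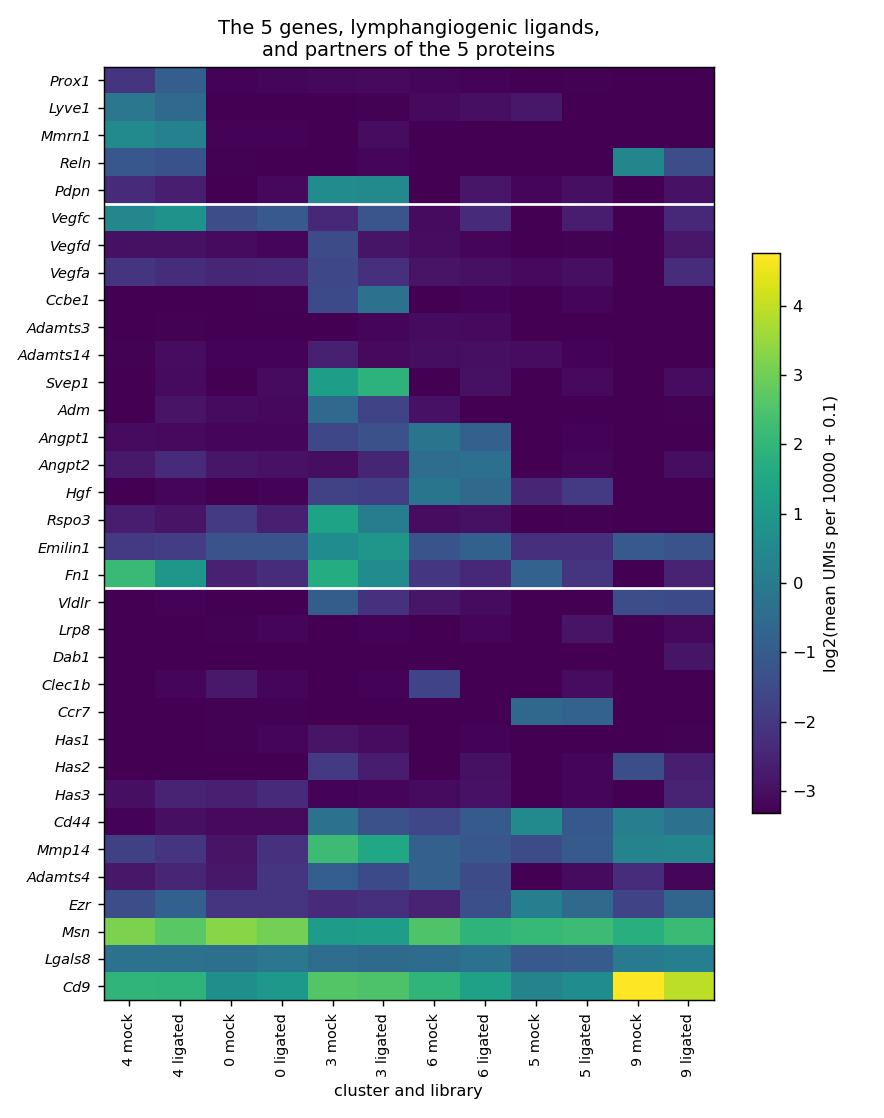
Levels as log2(UMIs per 10000 + 0.1), in colour, of the 5 genes (top block), lymphangiogenic ligands and their processing (middle block) and partners of the 5 proteins (bottom block), in 6 clusters with mock and ligated side by side. Vegfc is highest in cluster 4, Ccbe1 and Svep1 in cluster 3, and Reln in clusters 4 and 9.

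The genes whose levels followed each member most closely were picked over the 24 columns (12 clusters in each of 2 libraries). The same columns gave the 3 patterns, so a shared peak cluster was largely fixed in advance. The likeness is Pearson's r of log2(value + 0.1) against 7766 genes for Prox1 and 7765 for the others, as a description, since columns share libraries and depths and the peak cluster sets most of r. For Prox1 the closest were Ccl21a (0.88), Mmrn1 (0.87), Lyve1 (0.87), Cldn5 (0.85) and Dusp26 (0.77). For Lyve1 they were Mmrn1 (0.97), Gkn3 (0.96), Gja5 (0.93), St8sia6 (0.91) and Dusp26 (0.91), and for Mmrn1 they were Lyve1, Gkn3, Ccl21a, Bmx and Dusp26. Gja5 codes for an arterial connexin and Bmx for an arterial kinase, so the closest genes of Lyve1 and Mmrn1 included arterial genes of the mixed cluster 4.

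Reln followed Dhh (0.97), the desert hedgehog gene of Schwann cells, Egfl8 (0.93), Itgb4 (0.89), Fez1 (0.87) and Eva1c (0.86), all highest in cluster 9. The mock column of that cluster comes from 17 cells. Pdpn followed Prrx2, Steap3, Sema3a, Col6a6 and Cyp1b1, at 0.96 to 0.97 and all highest in cluster 3. Between members r was 0.97 for Lyve1 with Mmrn1 and 0.43 to 0.50 for Reln with Prox1, Lyve1 and Mmrn1. Pdpn had r from -0.01 to 0.13 with the other 4.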

How the data were processed

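Droplet single-cell RNA libraries, 1 ligated and 1 mock, were deposited as 4 tables of cluster means. The submitters' processing notes name Cell Ranger 6.0.1, Seurat and mm10. The authors' deposited values are read as each cluster's average, on a linear scale, of what a gene contributes to a cell scaled to 10000 UMIs, an other unit that is neither a count nor CPM, per the file headers and the values. Every column sums to 10000. One pair of tables covers all cells (12 clusters) and the other a subset (5 clusters), each joint and split by condition. Gene order was used to restore 21 names that had become dates. No column lacked a library.

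The number of cells per cluster follows from the weights that make joint values out of split values (largest residual 1.5e-07), and cell totals from genes seen in a single cell. The recovery of cell numbers was tested on simulated data, and that of cell totals was not. UMI worth is a level times cell number times the median recovered total, divided by 10000. No count model could be fitted to means. Differences are log2((ligated + 0.1)/(mock + 0.1)), compared where both libraries had at least 50 cells (9 clusters of all cells, 3 of the subset). Of 20140 genes, 684 were above 0 in mock only and 3150 in ligated only; all 5 members were above 0 in both. Levels, differences, shares, library means, 5 gene lists (99 genes, 3 without a row) and likeness over clusters were computed with Python 3.11.15, numpy 2.4.6, pandas 2.3.3 and scipy 1.17.1.

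Genes are named where they are members, where they belong to a gene list or marker list, or where they are among the 5 genes most like a member. The members and lists were chosen with earlier results of these data known. Alternatives covered the pseudocount, the minimum, the size of the difference, the reference genes, subtraction of a background share, the cluster mix and the likeness measure. Doublets were not called here. Clusters were named from marker lists, and names may differ from the study's.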

Additional observations from a re-analysis of the deposited data

Results flagged for a closer look

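Maf, a transcription factor gene of the lymphatic identity list, differed in opposite directions between clusters. Its log2 difference was 1.19 in the endothelial-like cluster 0 (0.555 in mock and 1.40 in ligated) and -1.38 in the fibroblast-like cluster 3 (5.48 and 2.04), both past the size rule. Maf was also past the rule in the T cell-like cluster 2, lower in ligated, and in cluster 10, led by erythroid genes, higher in ligated. With 1 library per group the difference between the clusters was not tested.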

How the results depend on the processing

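Each value comes from 1 library per group, so no setting can supply a replicate spread. No paired analysis was possible because each group has 1 library and the replicate number only names it. Of the alternative values 55 moved by less than a factor of 1.5, counts and fold leads taken as they stand and differences of levels on the log2 scale with the pseudocount of 0.1, and 42 moved further. No difference of 1 or more changed sign. On that scale low values move little. As plain ratios of library means, ligated over mock, Prox1 went from 2.49 to 3.93 and Reln from 0.948 to 0.430 with equal weight for every cluster, and Pdpn from 2.17 to 1.08 with the mock mix and 1.10 with equal weight. The lead of cluster 4 in ligated went to 29.2-fold for Prox1 and 22.2-fold for Lyve1 without cluster 11, chosen after seeing the data. The difference of Prox1 in cluster 4 was 0.34 with a pseudocount of 1, which is larger than its levels. Its log2 ratio was 1.86 relative to Pecam1 and Cdh5. Relative to Lyve1, Mmrn1 and Reln, chosen after seeing the data, it was 2.06. That of Pdpn in cluster 4 was -0.95 relative to Flt4 and Ccl21a, a sum that is mostly Ccl21a. Ratios to reference genes carry no pseudocount, unlike the main differences of 1.19 for Prox1 and -0.29 for Pdpn. Part of their move is therefore the change of scale, and the plain ratio of Prox1 was already 3.26-fold. The count of genes past the rule in cluster 4 was 572 with no minimum, 62 with a minimum of 2, 73 with a pseudocount of 1, 127 with a difference of at least 2, and 152 without genes at 0 in 1 library. In cluster 0 the same counts were 532, 78, 78, 128 and 160. Of the lymphatic identity list 2 passed in cluster 4 and 4 in cluster 0 with no minimum, and 0 in either with the minimum of 2, the pseudocount of 1 or the difference of 2. The 5 closest genes depended on the measure. By Spearman's rho 0 were shared for Prox1, Lyve1, Mmrn1, Reln and Pdpn. With a pseudocount of 0.01 Lyve1 shared 2, Mmrn1 3, Reln 3 and Pdpn 2. In mock alone Prox1 shared 0, Lyve1 2, Mmrn1 2, Reln 3 and Pdpn 1, and in ligated alone Lyve1 shared 2, Mmrn1 3, Reln 1 and Pdpn 2. Depth limits Prox1 and Pdpn most, since their mock means in cluster 4 are worth 19.4 and 14.2 UMIs.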
